A study of Mus musculus with 6 samples.

Results

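Macrophages and dendritic cells live beside eosinophils in the lamina propria of the small intestine, and 9 genes used to mark them were read in libraries made from cultured intestinal eosinophils. The genes are Csf1r, Apoe, Cd68, Lyz2, C1qa, C1qb, C1qc, Zbtb46 and Flt3. They were taken by symbol from the deposited transcript tables, where they make up 9 of 23283 gene symbols and 10 of 30374 RefSeq transcripts, and the values of a symbol's transcripts were added within each library. Values are FPKM, sequenced fragments scaled to transcript length and library depth, so that levels of different genes can be set side by side per length. Of the 9 genes, 4 averaged at least 1 FPKM over the libraries and were tested (Csf1r, Apoe, Cd68 and Lyz2). The other 5 stayed under 1 FPKM in all 6 libraries and are given as values with no test.

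The cells were small intestinal eosinophils of BALB/c mice, wild type, kept in culture for 4 hours without added cytokine (3 libraries, called untreated) or with GM-CSF at 10 ng/ml (3 libraries). GM-CSF supports granulocytes, macrophages and dendritic cells, and its receptor shares a beta chain with those for IL-3 and IL-5. The sources used here give neither the age of the mice nor the isolation of the eosinophils. Whether each culture came from an animal of its own is not stated, so p-values here reflect the spread between cultures, which may be technical.

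The libraries held an estimated 0.820 to 1.32 gigabases of mapped sequence, taken as the median ratio of deposited coverage to FPKM over transcripts. The treatment showed in Cish, a feedback inhibitor of cytokine receptors, at 15.4 to 20.5 FPKM in untreated and 153 to 159 FPKM in GM-CSF libraries. Socs1 and Socs3, further feedback inhibitors, rose by 4.24 and 3.22 and Csf2rb, the shared beta chain gene, by 0.87 on the log2 scale (limma adjusted p = 5.08e-05, 1.38e-06 and 0.000101). Of the genes that define eosinophils, Ccr3, the eotaxin receptor gene, was at 230 to 315 FPKM, and Siglec5, the files' symbol for Siglecf, at 159 to 181 FPKM. The granule protein genes Epx and Prg2 were lower, at 3.23 to 6.99 and 7.27 to 9.83 FPKM. Between 66 and 121 genes that averaged at least 1 FPKM were nevertheless entered at exactly 0 in a given library. The most were in GM-CSF replicate 2, the deepest library by that estimate, so an entry of 0 is reported here as listed at 0 and not as absence. Across the 10106 genes tested, 2212 changed, which is 21.9%: 776 were higher and 1436 lower with GM-CSF (limma on log2(FPKM + 1), Benjamini-Hochberg adjusted p under 0.05). This split depended on the scaling, since median-of-ratios factors gave 1078 higher and 968 lower and quantile normalization 950 and 1111.

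As background, Csf1r encodes the receptor for CSF1 and IL-34, on which most tissue macrophages depend. C1qa, C1qb and C1qc encode the chains of C1q, the recognition protein that starts the classical complement pathway, which resident macrophages make in large amounts. Apoe encodes a lipoprotein component that macrophages release with cholesterol, Cd68 a heavily glycosylated lysosomal membrane protein and Lyz2 the lysozyme of myeloid cells. Flt3 encodes the receptor for the growth factor that drives dendritic cell development, and Zbtb46 a transcription factor used to tell classical dendritic cells from macrophages.

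Among the 4 tested genes, Csf1r, Apoe and Lyz2 fell with GM-CSF and Cd68 did not pass. Of all tested genes, 14.2% passed in the downward direction. The median log2 fold change of the 4 genes was -0.53, and that of all tested genes -0.05. All 4 were above 6 FPKM in every library of both groups, so none passed the filter on low values through a single group. Of the 4 tested genes, Csf1r, Apoe and Lyz2 had every untreated library above every GM-CSF library, an order found in 26.0% of all tested genes. Counting also the untested C1qc, 4 of the 9 genes had this order. These libraries are bulk samples, in which fewer cells of a type and less RNA per cell cannot be told apart.

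**Figure D1:**
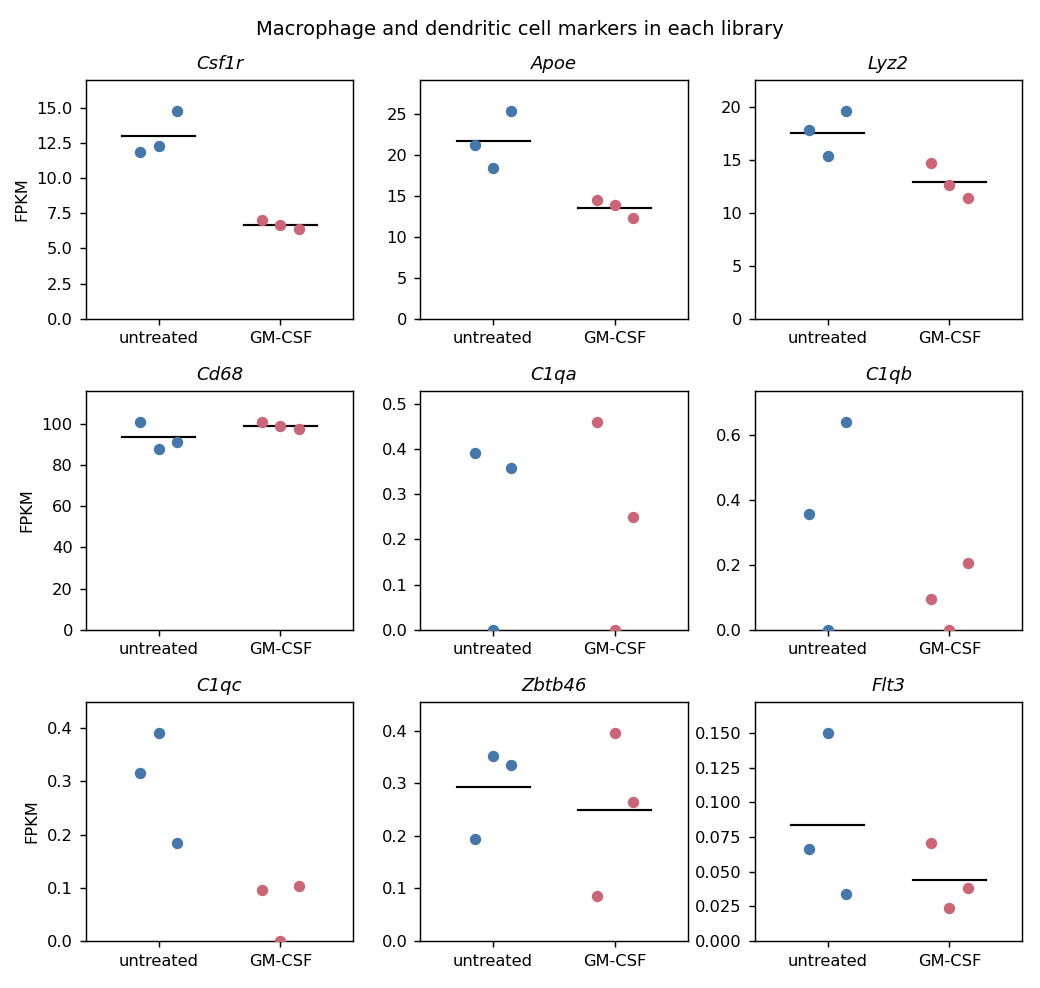
FPKM of each of the 9 genes (vertical axes from 0, with a scale of their own) in the 3 untreated (blue) and 3 GM-CSF (red) libraries, left to right by replicate number. Lines mark group means and are left out for genes listed at 0 in any library. The points of Csf1r, Apoe and Lyz2 do not overlap between groups, those of Cd68 do, and the other 5 genes lie under 1 FPKM.

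Csf1r, on chromosome 18 from 61105572 to 61131139 (GRCm38, the build named mm10 in the submitters' notes), had the largest change of the 4. It measured 11.9, 12.3 and 14.8 FPKM in untreated replicates 1 to 3 and 7.002, 6.68 and 6.41 FPKM in GM-CSF replicates 1 to 3. Every untreated library lay above every GM-CSF library, and the GM-CSF values were the more tightly grouped. The means were 13.0 ± 1.58 and 6.70 ± 0.297 FPKM (± SD, n = 3 each), and the log2 fold change was -0.86 with an SE of 0.09 (adjusted p = 0.00110 by limma). Of the 10106 tested genes, 162 had a fold change as low or lower. The call held under all 14 alternatives run.

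The ligands of this receptor differed widely in level. Csf1, which encodes the main ligand, was among the most abundant genes, at 831 to 936 FPKM in untreated and 758 to 833 FPKM in GM-CSF libraries, which overlapped (log2 fold change -0.13, limma adjusted p = 0.193). Il34, the other ligand gene, was at or under 0.0579 FPKM in every library. Tyrobp, whose adaptor protein carries signals from activating myeloid receptors, measured 2129 and 1987 FPKM on average (log2 fold change -0.10, adjusted p = 0.275). Sfpi1, the files' symbol for the gene of PU.1, a transcription factor that macrophages and granulocytes share, measured 321 and 297 FPKM (-0.11, adjusted p = 0.118). Names in this paragraph other than Csf1r were chosen after their values were seen.

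Of the 14 genes listed around the receptor (ligands, adaptor and transcription factors), 9 were tested, and 1 rose, 2 fell and 6 did not pass. Of all tested genes, 7.68% rose and 14.2% fell. The median log2 fold change of the 9 was -0.11. Cebpb, a transcription factor gene of myeloid cells, rose from 142 ± 6.20 to 225 ± 42.6 FPKM (± SD, n = 3 each), a log2 fold change of 0.64 (adjusted p = 0.0184 by limma). That call ended when any 1 of 4 libraries was left out, at adjusted p = 0.0540 without untreated replicate 2, 0.0609 without untreated replicate 3, 0.0550 without GM-CSF replicate 1 and 0.0580 without GM-CSF replicate 2. Irf8, a transcription factor gene of monocytes and dendritic cells, fell from 1.48 to 0.590 FPKM (-0.63, adjusted p = 0.0227), and passed the filter on low values through the untreated group alone. Its call ended without GM-CSF replicate 1 (0.0623), 2 (0.0575) or 3 (0.0645). Fli1, an ETS family factor gene, fell by 0.22 on the log2 scale (adjusted p = 0.0306), and its call ended under 7 of 14 alternatives, among them without untreated replicate 2 (0.0901) or 3 (0.0833), without GM-CSF replicate 2 (0.0908) or 3 (0.0865), and with median-of-ratios factors (0.116).

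Csf1r and Flt3 belong to the class III receptor tyrosine kinases, whose other genes moved in different directions. Pdgfra, a receptor gene for platelet-derived growth factor, rose from 3.503 ± 0.320 to 8.27 ± 0.0608 FPKM (± SD, n = 3 each), a log2 fold change of 1.04 with an SE of 0.07 (adjusted p = 0.000182 by limma). The call ended when the highest transcript stood for the gene (adjusted p = 0.0530). Kit, the receptor gene for stem cell factor, fell from 6.76 ± 0.506 to 3.63 ± 0.361 FPKM (-0.75, SE 0.09, adjusted p = 0.00175). Pdgfrb was at or under 0.113 FPKM in every library.

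Apoe, on chromosome 7 from 19696244 to 19701310, fell less than Csf1r. It measured 21.2, 18.4 and 25.4 FPKM in untreated replicates 1 to 3 and 14.5, 13.8 and 12.2 FPKM in GM-CSF replicates 1 to 3. The groups did not overlap, although the lowest untreated library was closer to the GM-CSF libraries than to the highest untreated one. The means were 21.7 ± 3.49 and 13.5 ± 1.18 FPKM (± SD, n = 3 each), and the log2 fold change was -0.63 with an SE of 0.12 (adjusted p = 0.0117 by limma). The call held under all 14 alternatives run, with adjusted p between 0.00941 and 0.0396.

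Around Apoe, 14 genes of cholesterol efflux and lipid uptake were listed, of which 8 were tested, and 1 rose, 1 fell and 6 did not pass. Of all tested genes, 7.68% rose and 14.2% fell. The median log2 fold change of the 8 was -0.06, against -0.05 for all tested genes. Lrp8, an Apoe receptor gene, rose from 0.628 ± 0.0215 to 1.96 ± 0.328 FPKM (± SD, n = 3 each), a log2 fold change of 0.86 with an SE of 0.11 (adjusted p = 0.00269 by limma), and reached 1 FPKM in the GM-CSF libraries alone. Abca1, the gene of a transporter that loads cholesterol onto apolipoproteins, fell by 0.38 on the log2 scale (adjusted p = 0.0371), but 10 of 13 alternatives ended that call. Among them were leaving out untreated replicate 1 (0.0962), 2 (0.0819) or 3 (0.104) and GM-CSF replicate 1 (0.109). Apoc1, the neighbouring apolipoprotein gene that macrophages express with Apoe, was listed at 0 in all 6 libraries, and Trem2, a lipid-sensing receptor gene of macrophages, was at or under 0.302 FPKM (both chosen after their values were seen).

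Cd68, on chromosome 11 from 69664213 to 69666170, was the most abundant of the 9 genes and ranked 846th of 23283 by its untreated mean. It measured 101, 87.8 and 91.4 FPKM in untreated replicates 1 to 3 and 101, 98.9 and 97.5 FPKM in GM-CSF replicates 1 to 3, so the groups overlapped. The means were 93.3 ± 6.73 and 99.0 ± 1.67 FPKM (± SD, n = 3 each), and the log2 fold change was 0.09 with an SE of 0.06 (adjusted p = 0.339 by limma). The 95% confidence interval of that log2 fold change ran from -0.05 to 0.22. Lamp2 and Lamp1, the other lysosomal membrane protein genes of the LAMP family that were tested, fell by 0.33 (adjusted p = 0.00489) and 0.13 (adjusted p = 0.0350) on the log2 scale. The call for Lamp1 ended under 11 of 14 alternatives, among them each of the 6 that left out a library (adjusted p between 0.0616 and 0.123) and median-of-ratios factors (0.375).

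Lyz2, on chromosome 10 from 117277541 to 117282272, had the smallest and least secure fall of the 3. It measured 17.8, 15.4 and 19.7 FPKM in untreated replicates 1 to 3 and 14.7, 12.6 and 11.4 FPKM in GM-CSF replicates 1 to 3. The groups did not overlap, but the lowest untreated and the highest GM-CSF library were close. The means were 17.6 ± 2.16 and 12.9 ± 1.65 FPKM (± SD, n = 3 each), and the log2 fold change was -0.42 with an SE of 0.12 (adjusted p = 0.0446 by limma). The call ended under 10 of 14 alternatives, among them without untreated replicate 1 (0.111) or 3 (0.120), without GM-CSF replicate 2 (0.111) or 3 (0.113), and with median-of-ratios factors (0.0853).

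Reads of Lyz2 can be confused with those of Lyz1, the lysozyme gene of Paneth cells, which lies 5.52 kb away on the same chromosome (117287795 to 117292868). The coding sequences of the pair, both 444 bases long without the stop codon, were identical at 95.05% of positions. The first 240 bases of each (GENCODE transcripts, GRCm38, minus strand, 5′ to 3′) are shown because the pair bears on how far the value of Lyz2 is its own, with the 17 positions that differ in capitals.
Lyz2: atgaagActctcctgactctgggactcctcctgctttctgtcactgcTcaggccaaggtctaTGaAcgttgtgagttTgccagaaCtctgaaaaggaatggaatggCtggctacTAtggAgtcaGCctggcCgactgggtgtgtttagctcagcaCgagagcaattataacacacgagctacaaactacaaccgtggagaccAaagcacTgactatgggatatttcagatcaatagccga
Lyz1: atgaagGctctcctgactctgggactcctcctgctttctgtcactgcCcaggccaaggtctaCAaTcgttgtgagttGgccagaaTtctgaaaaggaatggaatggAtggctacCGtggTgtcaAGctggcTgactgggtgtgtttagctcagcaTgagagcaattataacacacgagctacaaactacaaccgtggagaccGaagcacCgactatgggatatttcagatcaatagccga
The capitals are spread unevenly along the stretch, with long identical runs between some of them. The longest identical run within the coding sequence was 118 bases. Of all windows of 40 bases in the Lyz2 transcript, 23.3% were also found in Lyz1 and in no other gene, while the other 8 markers shared 0 windows of that length with any other gene of the GENCODE transcripts (for Cd68 in its longest coding transcript). Lyz1 itself measured 5.43, 5.69 and 6.43 FPKM in untreated and 2.76, 3.02 and 3.99 FPKM in GM-CSF replicates 1 to 3 (log2 fold change -0.69 with an SE of 0.12, adjusted p = 0.00882 by limma). The sources used here do not say how reads that fit both genes were divided, and the part of Lyz1 in the fall of Lyz2 was not tested.

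The C1q genes lie together within 18.7 kb of chromosome 4, in the order C1qb (136880126 to 136886200), C1qc (136889801 to 136892936) and C1qa (136895916 to 136898844). All were near the lower limit of these libraries. C1qa measured 0.392, 0 and 0.357 FPKM in untreated replicates 1 to 3 and 0.460, 0 and 0.250 FPKM in GM-CSF replicates 1 to 3. C1qb measured 0.357, 0 and 0.640 FPKM in untreated and 0.0941, 0 and 0.204 FPKM in GM-CSF libraries. C1qc measured 0.315, 0.390 and 0.184 FPKM in untreated and 0.0950, 0 and 0.103 FPKM in GM-CSF libraries. C1qa and C1qb thus overlapped between groups and were listed at 0 in both number 2 libraries, while every untreated value of C1qc was above every GM-CSF value. No value of the 3 genes rested on more than 0.623 kb of aligned sequence, against 20.4 to 52.5 kb for Csf1r.

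The summed level of the 3 chains was 1.06, 0.390 and 1.18 FPKM in untreated and 0.649, 0 and 0.557 FPKM in GM-CSF replicates 1 to 3. The groups overlapped (exact two-sided permutation test, n = 3 each, p = 0.3, where 0.1 is the smallest this design can give). With no filter on low values, which also tests these genes, C1qc had a log2 fold change of -0.28 and a limma adjusted p of 0.0626, C1qb of -0.25 (0.513) and C1qa of -0.02 (0.973). None of these passed, which at levels this low does not show that the genes were unchanged. Each of the 3 was below Csf1r in every library, and their sum as well.

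Among other genes of the complement system (proteases, components, receptors and regulators), more rose than fell. Of 20 listed, 12 were tested, and 5 rose, 1 fell and 6 did not pass, where 7.68% of all tested genes rose. Their median log2 fold change was 0.20, against -0.05 for all tested genes. C1s and C1ra, which encode the proteases that C1q activates, rose from 2.73 ± 0.545 to 6.14 ± 1.18 FPKM (± SD, n = 3 each), a log2 fold change of 0.93 with an SE of 0.16 (adjusted p = 0.00805 by limma) and from 1.42 ± 0.121 to 2.96 ± 0.520 FPKM (0.71, SE 0.12, adjusted p = 0.00742). C4a, a further complement component gene, rose from 3.99 to 7.08 FPKM (0.70, SE 0.07, adjusted p = 0.00107), and its near copy C4b by 0.57. Reads of C4a and C4b, and of C1ra and its near copy C1rb, may have been divided with error. The others that passed, named after their values were seen, were C3ar1, the receptor gene for the C3a fragment, which rose by 0.65, and Cd55, a complement regulator gene, which fell by 0.66. None of these 6 calls ended under any of the alternatives in which the gene was tested.

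**Figure D2:**
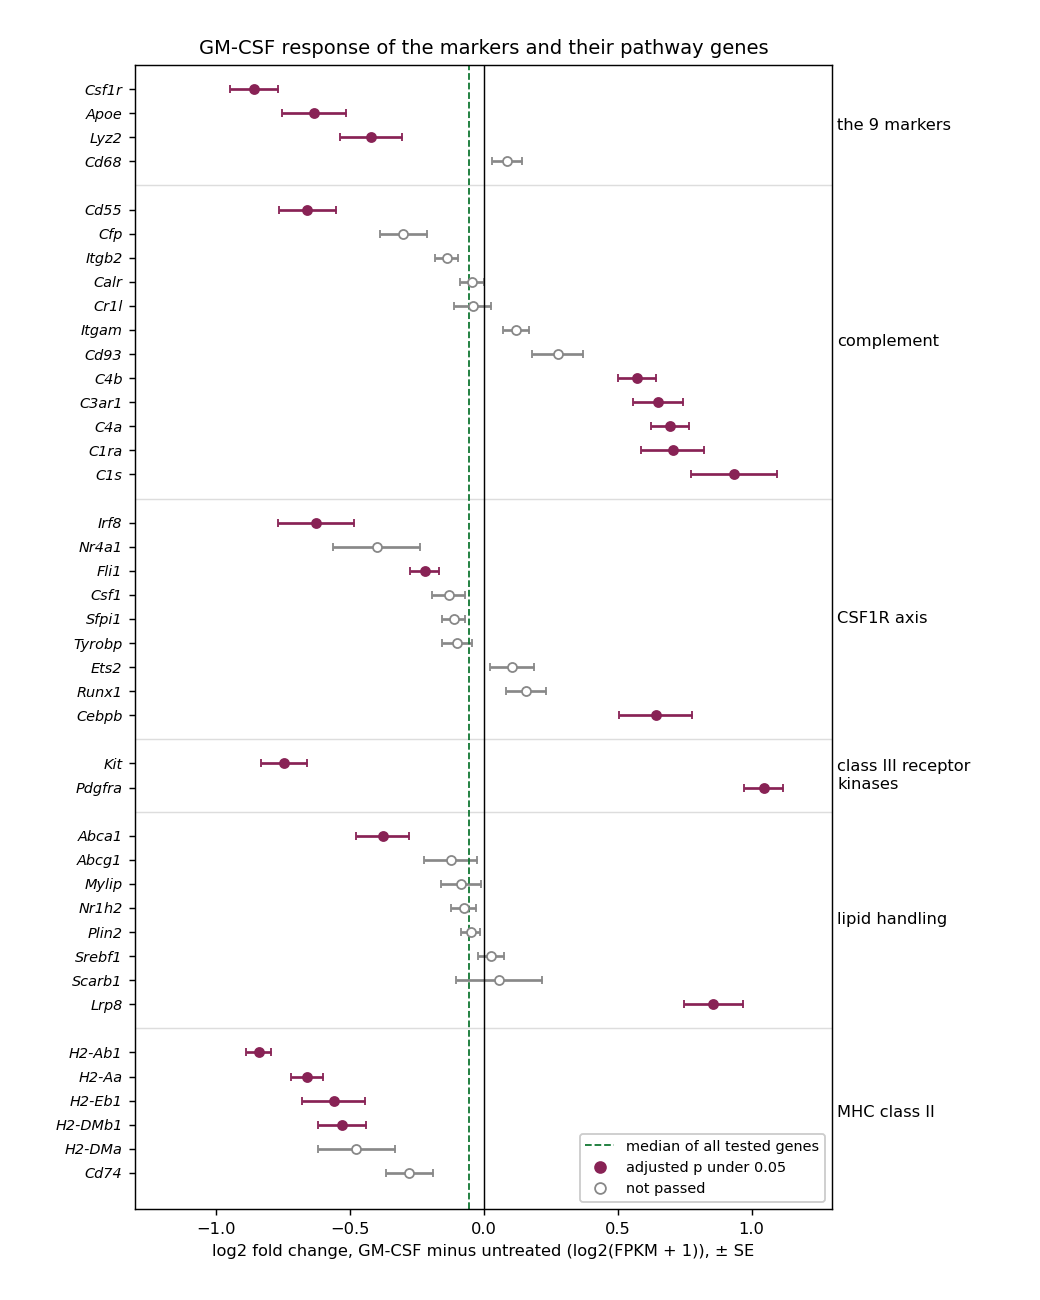
Log2 fold change (GM-CSF minus untreated, on log2(FPKM + 1), horizontal axis) with its standard error for each tested gene among the 9 markers and the lists around them, from limma with 3 libraries a group. Filled points passed at adjusted p under 0.05. Csf1r lies at -0.86 and C1s at 0.93, and the dashed line marks the median of all tested genes, -0.05.

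The dendritic cell genes Zbtb46 and Flt3 were also under 1 FPKM throughout. Zbtb46, on chromosome 2 from 181371009 to 181493262, measured 0.194, 0.352 and 0.334 FPKM in untreated and 0.0852, 0.395 and 0.265 FPKM in GM-CSF replicates 1 to 3. Flt3, on chromosome 5 from 147330741 to 147400489, measured 0.0666, 0.1498 and 0.0341 FPKM in untreated and 0.0702, 0.0236 and 0.0381 FPKM in GM-CSF replicates 1 to 3. The groups overlapped for both genes, and with no filter on low values their limma adjusted p was 0.799 and 0.573. At most 1.22 kb of aligned sequence stood behind a value of Zbtb46 and 0.534 kb behind one of Flt3, and neither result shows that the genes were unchanged. Flt3l, the ligand gene of Flt3 (named after its values were seen), was higher than its receptor, at 8.26 to 11.6 FPKM in untreated and 13.1 to 16.3 FPKM in GM-CSF libraries (log2 fold change 0.46, adjusted p = 0.0576). It passed under 4 of 14 alternatives, among them median-of-ratios factors (0.0314), quantile normalization (0.0396) and a minimum mean of 5 FPKM (0.0494).

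By level, the order in untreated libraries was Cd68, Apoe, Lyz2, Csf1r and then the 5 low genes. Apoe and Lyz2 were neighbours whose untreated values overlapped, whereas Cd68 was above both and Csf1r below both in every untreated library. Among the 5 low genes, every untreated value of Flt3 was below every one of C1qc and Zbtb46, and C1qa, C1qb, C1qc and Zbtb46 overlapped one another. With GM-CSF the order of the 4 abundant genes by mean was the same.

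The ratios between the 3 genes that fell were also compared, in a design too small for any of them to pass a test. The ratio of Csf1r to Lyz2 was 0.739 ± 0.0669 in untreated and 0.522 ± 0.0424 in GM-CSF libraries (SD, n = 3 each), without overlap. That of Csf1r to Apoe was 0.603 ± 0.0553 and 0.496 ± 0.0243, and that of Apoe to Lyz2 1.23 ± 0.0551 and 1.05 ± 0.0555, also without overlap. Relative to Cd68, Csf1r went from 0.140 ± 0.0221 to 0.0676 ± 0.00186. Over the 6 pairs of tested markers, every ratio had an exact two-sided permutation p of 0.1 (0.1 also after Benjamini-Hochberg adjustment), the smallest that 3 against 3 libraries can give.

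Other markers of macrophages and monocytes were mostly under 1 FPKM. Of 20 listed, 13 stayed under 1 FPKM in all 6 libraries, and Siglec1 and Vsig4, genes of resident macrophages, were listed at 0 in each. Mertk, an efferocytosis receptor gene, Mrc1, the mannose receptor gene, and Cd163, the haemoglobin scavenger receptor gene, were at most 0.0114, 0.0585 and 0.386 FPKM. Of the 6 genes tested, 1 fell and 5 did not pass, where 14.2% of all tested genes fell. The median log2 fold change of the 6 was -0.04. With median-of-ratios factors 2 of the 6 rose, and without GM-CSF replicate 3 there were 2 that fell and 1 that rose. The one that fell was Lgmn, the gene of the lysosomal protease legumain, from 24.0 ± 1.99 to 14.6 ± 0.242 FPKM (± SD, n = 3 each), a log2 fold change of -0.68 with an SE of 0.07 (adjusted p = 0.000868 by limma). The most abundant was Emr1, the older symbol of Adgre1, a surface receptor gene that mouse eosinophils are also known to express, at 345 to 386 FPKM in untreated and 398 to 473 FPKM in GM-CSF libraries (0.21, adjusted p = 0.108, and 0.0357 with median-of-ratios factors). The remaining tested genes did not pass either. Cd14 averaged 20.7 FPKM in untreated and 25.3 FPKM in GM-CSF libraries, without overlap (log2 fold change 0.27, limma adjusted p = 0.0664). It rose with median-of-ratios factors (0.0363) and without GM-CSF replicate 3 (0.0141). Ctss averaged 2.96 and 2.44 FPKM, Ccr2 2.23 and 2.53 FPKM and Pf4 1.81 and 1.502 FPKM (adjusted p = 0.449, 0.3698 and 0.563). Pf4 fell without GM-CSF replicate 3 (0.0487). Summed without Emr1, the other 19 genes reached 51.3 to 57.7 FPKM in untreated and 46.9 to 50.6 FPKM in GM-CSF libraries. Names in this paragraph other than Lgmn were chosen after their values were seen.

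Of 18 other genes listed for dendritic cells, the ligand gene Flt3l among them, 7 were tested and 0 passed with limma. Of the 7, 4 had an unadjusted p under 0.05. Among the alternatives, 3 rose with median-of-ratios factors and 1 each with quantile normalization, with a minimum mean of 5 FPKM and without GM-CSF replicate 1, while 1 of 18 fell with no filter. Their median log2 fold change was 0.20. The most abundant were Itgax, the gene of CD11c, at 450 and 431 FPKM (adjusted p = 0.310), and Sirpa, an inhibitory receptor gene, at 435 and 467 FPKM (adjusted p = 0.119, and 0.0181 with median-of-ratios factors). Which cells in the eosinophil cultures Itgax and Sirpa came from was not tested. Clec9a and Cd209a, lectin receptor genes of separate dendritic cell subsets named after their values were seen, were at most 0.102 and 0.179 FPKM. The remaining tested genes, also named after their values were seen, were higher. Over the 6 libraries Id2 was at 55.5 to 79.0, Batf3 at 12.9 to 19.8, Xcr1 at 0.832 to 1.36 and Ccr7 at 0.552 to 2.48 FPKM. Their log2 fold changes were 0.26, 0.30, 0.20 and -0.60 (limma adjusted p = 0.0792, 0.223, 0.240 and 0.0822).

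**Figure D3:**
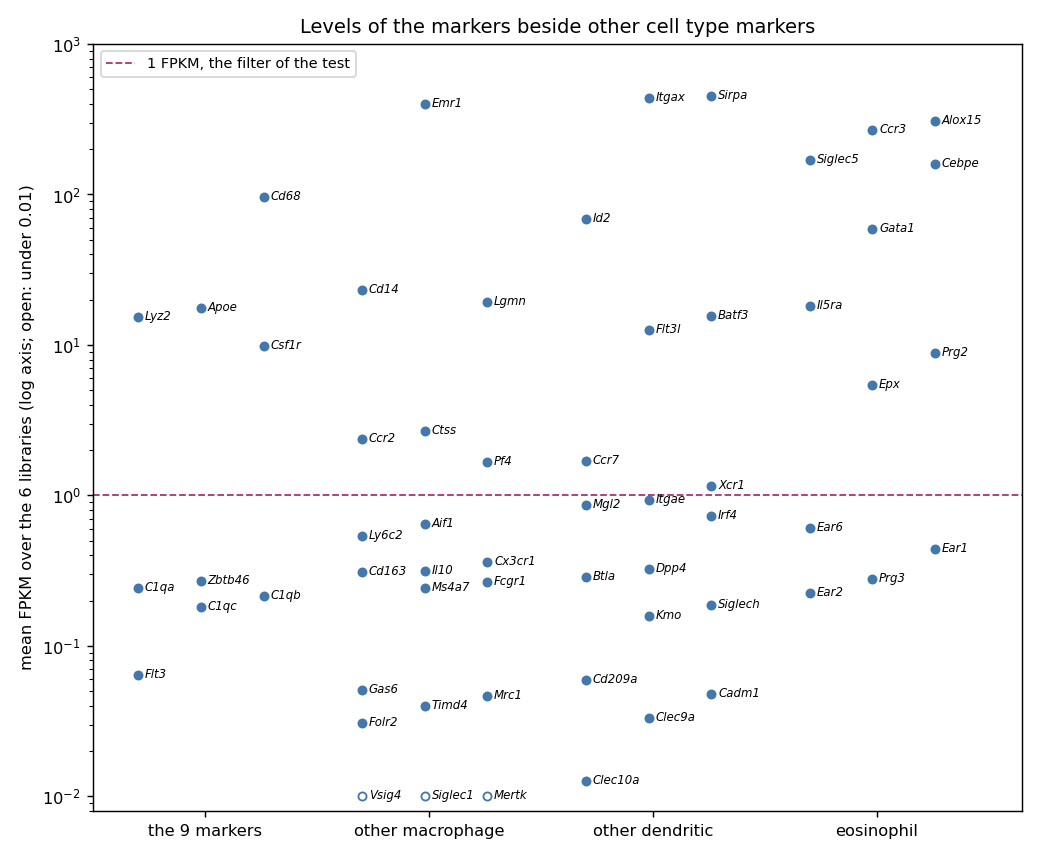
Mean FPKM over the 6 libraries (log axis) of the 9 markers, the other macrophage and dendritic cell markers and eosinophil markers, 1 point per gene. Open points lie under 0.01 FPKM, and the dashed line is the filter of the test at 1 FPKM. Cd68, Apoe, Lyz2 and Csf1r lie above it, and C1qa, C1qb, C1qc, Zbtb46 and Flt3 below it.

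Of 7 genes of MHC class II presentation, which macrophages, dendritic cells and B cells use to present antigen, 6 were tested, and 4 fell and 2 did not pass, where 14.2% of all tested genes fell, with a median log2 fold change of -0.54. H2-Ab1 fell by 0.84 (SE 0.05), H2-Aa by 0.66 (SE 0.06) and H2-Eb1 by 0.56 (SE 0.12, limma adjusted p = 0.0177). The other was H2-DMb1, a gene of the peptide-loading complex named after its values were seen, which averaged 1.48 FPKM in untreated and 0.715 FPKM in GM-CSF libraries and so passed the filter through the untreated group alone. The call for H2-Eb1 ended without untreated replicate 1 (0.0582) or 3 (0.0571) or GM-CSF replicate 2 (0.0579), and without untreated replicate 1 there were 2 that fell of 5 then tested. The summed level of the list was 125 to 137 FPKM in untreated and 92.8 to 94.6 FPKM in GM-CSF libraries.

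Markers of other cell types were also measured, and all tested B, plasma and T cell markers fell, where 14.2% of all tested genes did. Of 7 B and plasma cell markers, 6 were tested and fell, and the summed level of that list was 32.3 to 40.1 FPKM in untreated and 17.0 to 18.4 FPKM in GM-CSF libraries. That count was 3 of 6 without GM-CSF replicate 2 or 3, with quantile normalization and with the replicate number as a block. Mzb1 and Pou2af1, B lineage genes of which the second was named after its values were seen, averaged under 1 FPKM with GM-CSF and passed the filter through the untreated group alone. Cd79b, a B cell receptor chain gene, fell by 0.88, a call that held under all 14 alternatives. Igj, the immunoglobulin joining chain gene, also fell by 0.88 (limma adjusted p = 0.0439), but 10 of 14 alternatives ended its call, among them leaving out untreated replicate 1 (0.0624) or GM-CSF replicate 1 (0.0565), 2 (0.119) or 3 (0.114) and median-of-ratios factors (0.0646). All 4 tested of 6 matched T cell markers fell (26.9 to 27.996 against 14.6 to 17.1 FPKM), led by Lck, a T cell kinase gene, which fell by 0.96 (limma adjusted p = 0.000475, and 0.171 when the highest transcript stood for the gene). The call of Cd3d, a T cell receptor complex gene named after its values were seen, ended under 9 of 14 alternatives, among them leaving out untreated replicate 1 (0.0939) or 3 (0.0901) or GM-CSF replicate 1 (0.0840), 2 (0.0581) or 3 (0.0881). Of 8 tested epithelial markers, 4 fell, Lyz1 among them, and 0 rose (86.1 to 92.2 against 56.0 to 69.7 FPKM). The call of Krt8, which fell, ended under 4 of 14 alternatives. These were no filter (0.0687) and leaving out untreated replicate 1 (0.0790), 2 (0.0817) or 3 (0.0884). Epcam, named after its values were seen, had a log2 fold change of 0.27 and did not pass (limma adjusted p = 0.198). No marker of these 3 lists was listed at 0 in all libraries. Of 8 tested eosinophil markers, 4 fell and 1 rose (1132 to 1315 against 742 to 846 FPKM), and the largest share of the untreated sum was Alox15, a lipoxygenase gene, which fell from 461 to 157 FPKM. Among 9 matched neutrophil markers, 5 were tested, and 2 fell and 1 rose (1369 to 1486 against 1143 to 1170 FPKM). Most of that sum was the single gene Retnlg, which averaged 1344 FPKM in untreated and 999 FPKM in GM-CSF libraries. Cxcr2, a chemokine receptor gene, rose by 2.15 on the log2 scale. Elane and Camp, granule genes named after their values were seen, were listed at 0. Of 8 mast cell and basophil markers, 3 were tested and Kit fell (2 fell without untreated replicate 3), with 3 markers listed at 0 in all libraries. Finally, of 8 stromal and endothelial markers, 2 were tested, Pdgfra, which rose, and Pecam1, an adhesion molecule gene also of leukocytes, which fell by 0.41. The part of any of these cell types in the falls of Csf1r, Apoe and Lyz2 was not tested.

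**Figure D4:**
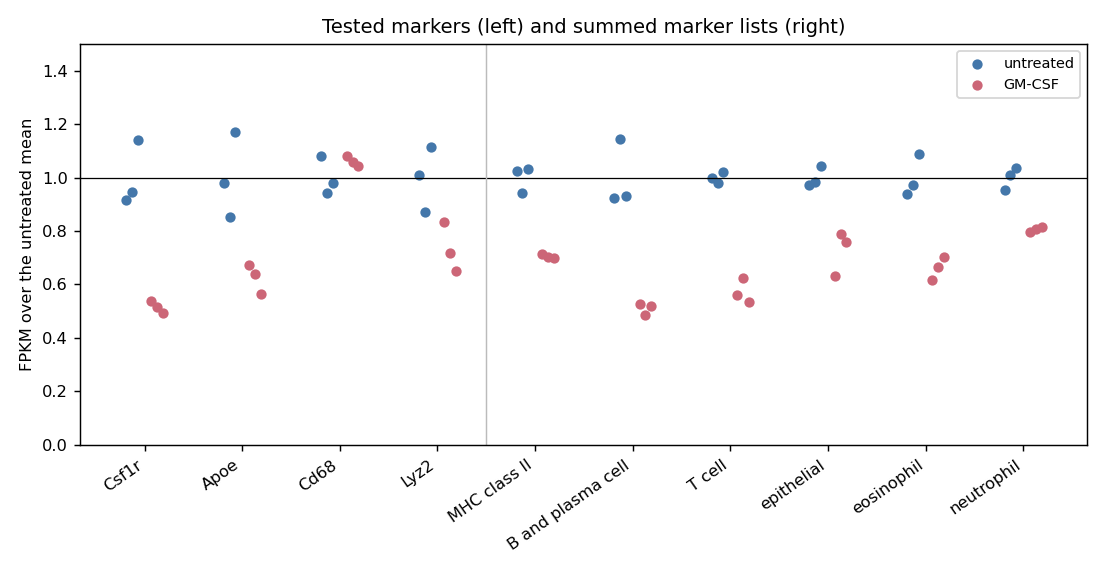
FPKM divided by the untreated mean (vertical axis) for the 4 tested markers (left of the line) and the summed level of 6 marker lists (right of it), in 3 untreated (blue) and 3 GM-CSF (red) libraries. Csf1r lies at 0.494 to 0.540 of its untreated mean with GM-CSF, the B and plasma cell list at 0.486 to 0.527 and Cd68 at 1.04 to 1.08.

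Many genes followed Csf1r across the libraries. Over the 6 libraries, 1167 tested genes had a Pearson correlation of at least 0.9 with it on log2(FPKM + 1), and the points share the 2 groups, so this describes the libraries and is given with no test. The closest were Tnip1 (r = 0.999), Pbld1 (0.999), Fndc5 (0.999), Tkt (0.998) and Rab11fip1 (0.998). Apoe and Lyz2 correlated with Csf1r at 0.964 and 0.901. For the mean of the 3 C1q genes the closest were Sh3d19 (0.988), Eif2c2 (0.985), Dexi (0.985), Atp5g2 (0.983) and Snora17 (0.980), and 92 genes reached 0.9. The C1q values are near the lower limit, and 2 of the 6 libraries list C1qa and C1qb at 0.

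The sequence before the transcription start was searched in the RefSeq promoter table (GRCm38.p6), which held 7 of the 9 genes. The windows of Csf1r and C1qa were not used here. The window of Zbtb46, chr2:181424389-181424638, lay within the span given above for that gene, as did the windows of Apoe. Sequence before the outer end of these spans was therefore not searched. In the 250 bases before each start, the core motif of PU.1 (GAGGAA on either strand) was found for 4 of 7 genes, C1qb, C1qc, Apoe and Cd68. Of all 32851 windows, 23.3% hold it. The 2 measures differ, since a gene counted with a match in any of its windows, and the 7 genes had 9 windows. The motif bound by STAT factors, which GM-CSF receptors activate (TTCNNNGAA, the same on both strands), was found for 0 of 7, against 7.02% of all windows. Windows of 3 genes with measurable levels are shown, with PU.1 matches in capitals, 5′ to 3′ on the minus strand: Apoe at the start linked to its deposited transcript, chr7:19699189-19699438, Cd68, chr11:69666171-69666420, and Lyz2, chr10:117282273-117282522.
Apoe: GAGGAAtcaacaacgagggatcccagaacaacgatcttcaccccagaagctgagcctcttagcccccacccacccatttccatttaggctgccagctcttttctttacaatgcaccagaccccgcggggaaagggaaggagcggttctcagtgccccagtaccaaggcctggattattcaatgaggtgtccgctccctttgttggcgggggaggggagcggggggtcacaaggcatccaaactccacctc
Cd68: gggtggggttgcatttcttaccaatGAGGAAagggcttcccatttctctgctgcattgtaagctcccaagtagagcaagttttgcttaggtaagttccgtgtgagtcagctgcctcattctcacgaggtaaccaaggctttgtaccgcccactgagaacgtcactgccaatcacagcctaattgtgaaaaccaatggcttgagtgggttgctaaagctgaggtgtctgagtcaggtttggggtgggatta
Lyz2: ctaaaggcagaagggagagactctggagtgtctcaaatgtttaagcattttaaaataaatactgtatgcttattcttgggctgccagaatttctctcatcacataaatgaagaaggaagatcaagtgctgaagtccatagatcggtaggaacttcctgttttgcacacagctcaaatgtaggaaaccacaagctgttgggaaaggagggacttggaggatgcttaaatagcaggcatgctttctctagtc
Apoe, which fell, and Cd68, which did not pass, each held 1 match, at positions -250 and -225 counted from the start, and Lyz2, which fell, held none. A match describes letters in the window and says nothing on binding. Apoe has 3 starts in the table, and 2 of their windows held a match. In the last 100 bases before the start, the Lyz2 window was identical to that of Lyz1 at 92 positions.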

How the data were processed

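Polyadenylated RNA of 6 cultures of small intestinal eosinophils, 3 untreated and 3 with GM-CSF, was sequenced, and groups were taken from the sample titles. Per the submitters' processing notes, the tools were bcl2fastq 1.8.4, Cufflinks, TopHat2 and TopHat and the build mm10, and these notes give no order or settings. The authors deposited FPKM per RefSeq transcript, with a confidence interval. Of the 24 values of the 4 abundant markers, 16 lay outside their own deposited interval, and the intervals were not used. These 16 were values of Apoe, Cd68 and Lyz2, each above its upper limit, and none of Csf1r. Among all transcripts past a low cut-off, 11.3% (GM-CSF replicate 3) to 15.7% (GM-CSF replicate 2) lay outside in a library. The deposited coverage served to give the aligned bases behind a value (coverage times length) and to estimate the mapped sequence of each library. No read counts were used.

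FPKM were summed per symbol, and genes averaging 1 FPKM or more were tested on log2(FPKM + 1) with limma 3.58.1 in R 4.3.3 (trend, two-sided, Benjamini-Hochberg over all tested genes), which understates changes of low genes. The fit was tested on simulated data. Besides the 9 markers, 17 gene lists were used, and of 178 entries 172 matched by symbol, 4 through older symbols and 2 not at all. A gene first listed with the lipid genes is not reported here. The markers and lists were chosen with earlier results of these data known. Genes named were the 9 markers, Lyz1, treatment and eosinophil markers, up to 3 passing genes with the largest change per list (the 2 most abundant where none passed) and the 5 genes most correlated with Csf1r and with C1q. Other names are said to be chosen later. Alternatives changed the pseudocount, filter, scaling, trend, replicate block, transcript choice and the libraries used.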

Additional observations from a re-analysis of the deposited data

How the results depend on the processing

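Of 56 comparisons of the 4 tested markers with an alternative, 46 kept their direction and side of the threshold. The other 10 were the call of Lyz2, whose adjusted p ran from 0.0340 to 0.120 over its 14 alternatives. The number of changed markers was 3 or 2 under every alternative, and that of all changed genes between 1515, without untreated replicate 2, and 2221, with a pseudocount of 0.1. The difference in summed C1q stayed negative under its 7 alternatives, from -0.72 to -0.28 FPKM when 1 library was left out. Counts of genes in the other lists moved by more than 1.5 times in 72 of 476 comparisons. The main fit did not pair libraries by the replicate numbers in the titles. Deviations of same-numbered libraries correlated at -0.0323, 0.0541 and -0.0173. With 3 libraries a group, such values cannot show whether the cultures were paired. With the replicate number as a block, 1996 genes changed, 2 of the markers among them (Csf1r and Apoe), and Lyz2 had an adjusted p of 0.0750. The block also let 2 genes of the dendritic cell list pass, the ligand gene Flt3l among them (0.0238), and ended the call of Fli1 (0.0787). Depth limits the 5 markers under 1 FPKM, and with 3 libraries a group no exact permutation test can pass.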
